A study of Mus musculus with 16 samples.

Results

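The Gnas locus is an imprinted cluster on mouse chromosome 2 in which several promoters feed transcripts of opposite parental expression into one set of downstream exons. It was followed element by element in the CpG methylation calls of 16 libraries of metaphase II (MII) oocytes. The locus was taken as positions 174284000 to 174347000 of chromosome 2 in the GRCm38 build, a length of 63001 bp with 1444 CpGs in the reference. It was divided by position alone into 5 elements that together cover it. From the first base these are the Nesp side (174284000 to 174294695, 274 CpGs), the Nespas/Gnasxl germline differentially methylated region or gDMR (174294696 to 174299763, 249 CpGs), the middle (174299764 to 174327041, 323 CpGs), the exon 1A gDMR (174327042 to 174328461, 93 CpGs) and the 3' gene body (174328462 to 174347000, 505 CpGs). In the GENCODE M21 annotation the Gnas gene, ENSMUSG00000027523.19, runs on the forward strand from 174284320 to 174346744, and the antisense gene Nespas, ENSMUSG00000086537.7, lies on the reverse strand. The locus held 11649 of the 176481104 CpG calls of the series, at 9241 covered positions summed over libraries out of 133795244.

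A library was made by post-bisulfite adaptor tagging (PBAT) from 1 pool of MII oocytes, the stage at which an egg is ovulated, with their polar bodies retained. The donors of all groups were F1 females, C57BL/6J X CBA/Ca, and carried both genomes. In the 4 IFC pools the oocytes had grown in preantral follicles of prepubertal females kept in in vitro follicle culture, and the labels give these an age of 23 days. By the study's methods that age includes the time in culture, and the IFC donors were younger than 23 days. The 5 SO pools came from superovulated prepubertal females of 23 days, the 4 SOA pools from superovulated adult females of 10 weeks, and the 3 IV pools from adult females of 10 weeks that ovulated naturally without hormones. Age and hormone dose differed together between SO and SOA and cannot be told apart. Culture and the age of the donors differed together between IFC and SO and cannot be told apart either. The comparisons of the study were IFC with SO for culture, SO with SOA for maturity, SOA with IV for hormones, and IFC with SOA. Separate pools are the replicates of the exact permutation tests and of the quasi-binomial F test, while the binomial likelihood-ratio test used for tiles and gene bodies takes calls as independent and leaves out the spread between pools.

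Imprinted genes carry methylation that differs between egg and sperm and is kept after fertilization. At Gnas, oocytes are known to methylate the promoters of Gnasxl, which encodes the extra-large G protein XLαs, of Nespas, a non-coding antisense RNA, and of exon 1A, a non-coding alternative first exon, so that these transcripts come from the paternal copy. The promoter of Nesp, which encodes the neuroendocrine secretory protein NESP55, is not methylated in the female germline. The CpG island at Gnas exon 1, the start of the mRNA for the stimulatory G protein subunit Gsα, is known to stay unmethylated on both copies. Gsα activates adenylyl cyclase, and cyclic AMP made in this way is known to hold the oocyte in meiotic arrest until ovulation.

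A library had between 249 and 1379 calls in the locus. Of the covered positions 79.4% had a single call, so that values below are methylated calls as a percent of all calls pooled over an element or window. Over the 16 libraries 98.5% of the reference CpGs had some call. The whole libraries held 5218053 to 23065411 calls. The IFC libraries, SO1, SO2 and SOA1 to SOA3 were the shallower ones, with at most 8231898 calls, and the rest, the 3 of IV among them, had at least 12126481, so that group and depth cannot be fully told apart. IV1 stood apart from the other libraries. In windows around 311 starts of X-linked genes, which are methylated on the inactive X chromosome of somatic cells, IV1 had 9.55% methylated calls against 3.58% to 6.41% in the other 15 libraries. Tiles of 100 CpGs that were below 20% in the other groups averaged 15.6% in IV1, while in other libraries such tiles averaged 6.65% to 10.95%. At 10884 autosomal starts IV1 had 4.52%, within the 3.24% to 4.77% of all libraries, and at the region upstream of H19 that is methylated in somatic cells on the paternal copy it had 1.89%, within 0% to 4.55%. Results of IV are therefore also given without IV1, and the part of DNA from other cells in these results was not tested.

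The promoter sequences of 4 starts are printed because their CpGs fall into opposite states in the oocyte although all are CpG-rich. Each is 300 bases of the GRCm38 assembly from RefSeq, written 5′ to 3′ in the direction of transcription with every CpG in capitals.
Nesp (chr2:174284070-174284369, forward strand): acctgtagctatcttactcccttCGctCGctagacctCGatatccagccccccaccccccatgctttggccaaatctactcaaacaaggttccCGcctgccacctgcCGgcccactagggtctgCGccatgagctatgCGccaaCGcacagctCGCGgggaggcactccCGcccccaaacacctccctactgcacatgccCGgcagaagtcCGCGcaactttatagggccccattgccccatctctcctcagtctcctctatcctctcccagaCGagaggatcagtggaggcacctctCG
Nespas (chr2:174295387-174295686, reverse strand): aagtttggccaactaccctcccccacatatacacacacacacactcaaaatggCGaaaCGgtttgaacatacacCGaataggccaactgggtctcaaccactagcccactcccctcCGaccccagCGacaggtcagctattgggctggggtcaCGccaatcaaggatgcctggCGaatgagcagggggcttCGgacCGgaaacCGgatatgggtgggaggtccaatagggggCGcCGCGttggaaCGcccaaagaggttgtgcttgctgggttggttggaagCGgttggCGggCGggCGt
exon 1A (chr2:174327499-174327798, forward strand): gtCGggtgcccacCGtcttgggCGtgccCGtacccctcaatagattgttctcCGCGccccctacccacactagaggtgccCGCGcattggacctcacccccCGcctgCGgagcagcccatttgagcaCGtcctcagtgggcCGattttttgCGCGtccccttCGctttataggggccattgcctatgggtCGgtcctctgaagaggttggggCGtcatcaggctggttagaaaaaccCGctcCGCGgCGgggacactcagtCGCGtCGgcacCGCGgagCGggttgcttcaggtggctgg
Gnas exon 1 (chr2:174329756-174330055, forward strand): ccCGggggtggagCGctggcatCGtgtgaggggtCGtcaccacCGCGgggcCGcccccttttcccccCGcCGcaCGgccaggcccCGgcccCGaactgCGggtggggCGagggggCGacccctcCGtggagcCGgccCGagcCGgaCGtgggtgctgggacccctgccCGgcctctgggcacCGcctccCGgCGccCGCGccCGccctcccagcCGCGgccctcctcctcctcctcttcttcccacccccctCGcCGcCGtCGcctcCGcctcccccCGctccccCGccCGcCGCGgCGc
The 16 CpGs of the Nesp sequence were methylated in 9.46% of 148 calls over all libraries, and the 40 CpGs of the Gnas exon 1 sequence in 2.91% of 103 calls. The 18 CpGs of the Nespas sequence were methylated in 95.5% of 132 calls, and the 27 CpGs of the exon 1A sequence in 96.6% of 204 calls. The most CpG-dense of the 4, Gnas exon 1, was thus unmethylated, and exon 1A, which lies just upstream of it, was methylated.

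Seen along the locus in 63 bins of 1 kb, methylation had 2 states and few values between them. Of the 63 bins, 54 were above 80% with a median of 95.1%, 6 were below 20% and 3 lay between. The first 4 bins, which hold the Nesp starts, had 5.74%, 4.73%, 1.93% and 1.45% methylated calls, and the next had 18.2%. The bin after that had 94.5%, and in steps of 250 bp the change fell between 4.5 to 4.75 kb, with 0% of 19 calls, and 5 to 5.25 kb, with 94.8% of 96 calls. The second low stretch lay at Gnas exon 1, where the bins from 45 to 48 kb had 59.9%, 8.09% and 29.8%. Its flank towards exon 1A was graded, with 92.1% at 44.75 to 45 kb, 82.9% and 77.3% in the next steps of 250 bp, 30.3% at 45.5 to 45.75 kb and 4.71% at 45.75 to 46 kb. On its other side methylation returned over 3 steps, from 6% at 47 to 47.25 kb through 29.4% and 60% to 82.4% at 47.75 to 48 kb. A further bin, at 28 kb in the middle, had 65.9% of only 44 calls, and within it 1 position, 174312298, was unmethylated in all 5 of its calls, each from a different library. A base that differs between the CBA/Ca and C57BL/6J copies can be read as an unmethylated CpG, and whether it was so here was not tested.

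**Figure D1:**
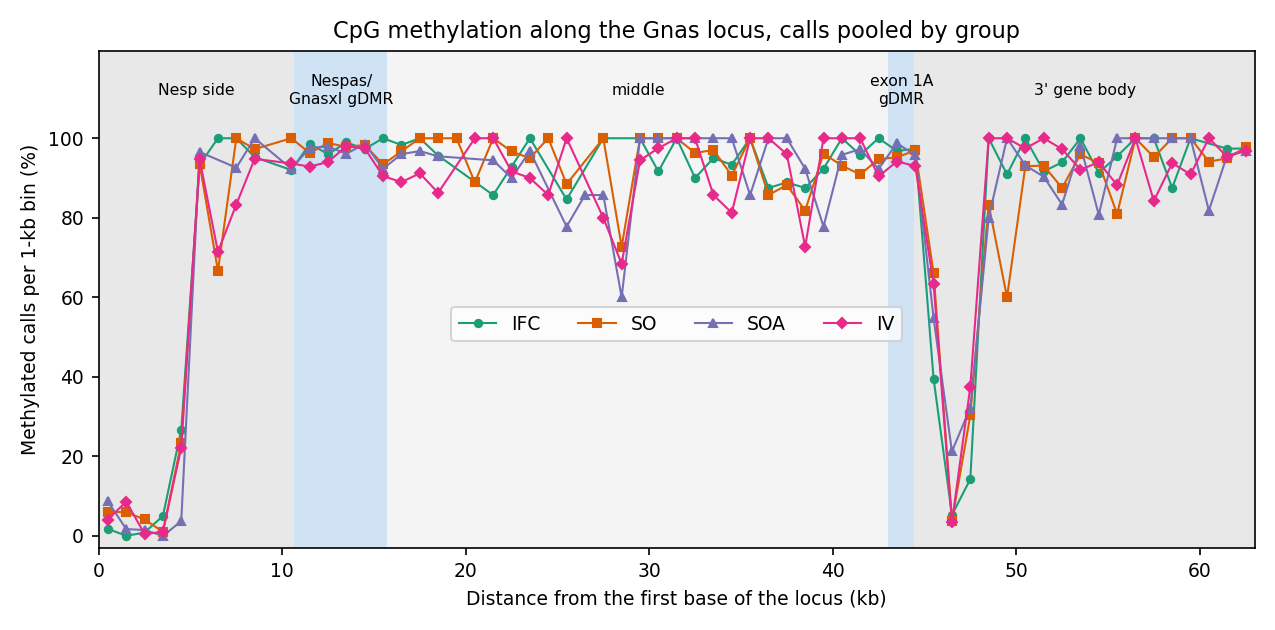
Methylated calls in percent (vertical axis) in each 1-kb bin of the locus (horizontal axis, distance from its first base in kb), with the calls of each group pooled and the 5 elements shaded. Bins in which a group had fewer than 5 calls are left out for that group. All 4 groups are low in the first bins at Nesp and high through both gDMRs and most of the middle. SO, SOA and IV dip at 28 kb, where IFC has no point. All 4 groups are low again at 46 kb, where IFC had 5.26%, SO 3.85%, SOA 21.2% and IV 3.47%. From 46 to 48 kb SOA1 had 66.7%, and the other SOA libraries had 9.09% to 27.3%.

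**Figure D2:**
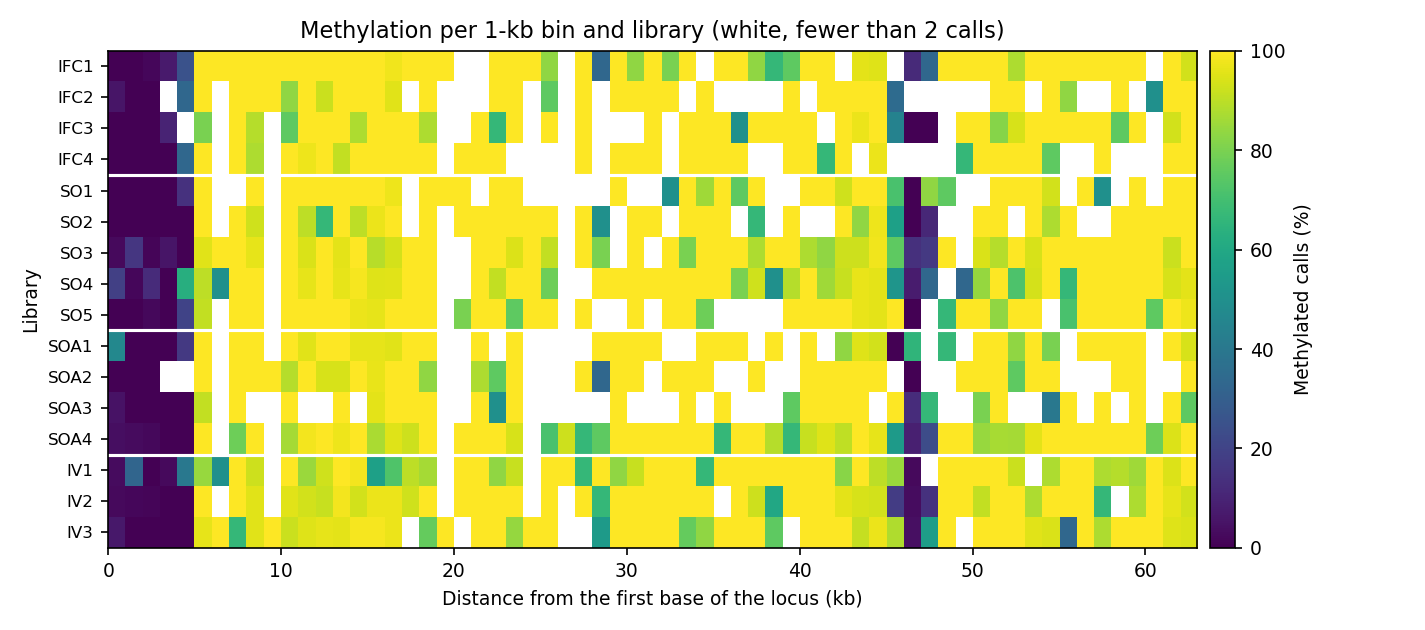
Methylated calls in percent (colour) in each 1-kb bin (horizontal axis, kb from the first base of the locus) for each library (rows, grouped as IFC, SO, SOA and IV), with bins of fewer than 2 calls white. The dark blocks at 0 to 5 kb and near 46 kb recur in each group, and exceptions sit in single libraries, such as IV1 at 15 to 17 kb and SOA1 at 0 and 46 kb.

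The Nespas/Gnasxl gDMR, which holds the starts of Nespas and of Gnasxl, was methylated in every library. IFC1 to IFC4 had 100%, 97.0%, 97.8% and 97.2% methylated calls, SO1 to SO5 had 100%, 93.0%, 94.6%, 97.6% and 98.8%, SOA1 to SOA4 had 97.7%, 95.3%, 94.4% and 95.02%, and IV1 to IV3 had 89.9%, 96.4% and 97.1%. IV1 was the only library below 90%, and the groups overlapped in all 4 comparisons. With SD, the mean of the 4 IFC pools was 98.0% ± 1.36, that of the 5 SO pools 96.8% ± 2.92 and that of the 4 SOA pools 95.6% ± 1.45. The 3 IV pools averaged 94.5% ± 3.95, which became 96.8% ± 0.476 without IV1. Among the 4 comparisons, IFC and SOA differed most with these limits, by 2.41 points, with IFC higher. The exact permutation test, two-sided, gave p = 0.0857, and 0.343 after adjustment over the 4 comparisons. With the limits of the region that the study lists, 174298234 to 174301029, the difference of IFC and SOA was 2.98 points with p = 0.0286 in the exact permutation test, the smallest p that 4 pools against 4 allow, and 0.114 after adjustment over the 4 comparisons. Of the 4 comparisons, SOA minus IV had the largest difference there, 4.93 points, without passing the exact permutation test (p = 0.543). IV1 had 78.6% against 91.7% to 100% elsewhere. The study lists this region among those that differed between SOA and IV in these same libraries. A difference of SOA and IV there is thus no separate support. The region also runs past the gDMR into the middle. The study reports lower methylation of IV at the Gnas gDMR, which seemed due to IV1, and did not regard it as biologically relevant. Within the element limits, IFC minus SO was 1.23 points and SO minus SOA 1.18 points (exact permutation p = 0.460 each). Leaving out SO1 or SO2 moved the former to 2.03 or 0.286 points and the latter to 0.376 or 2.12 points. SOA minus IV was 1.13 points (exact permutation p = 0.743). SOA minus IV changed sign to -1.15 points without IV1.

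The exon 1A gDMR, the CpG-richest element with 65.5 CpGs per kb, was also methylated in every library. Its calls were few, between 8 and 118 per library. The 4 IFC libraries had 96%, 100%, 97.1% and 94.7% methylated calls, the 5 SO libraries 100%, 95.2%, 92.3%, 96.3% and 97.5%, the 4 SOA libraries 96.6%, 100%, 100% and 99.2%, and the 3 IV libraries 98.0%, 93.9% and 93.5%. No library was below 92%, and IV1 lay above IV2 and IV3 here. SOA was above IV by 3.84 points (98.9% ± 1.60 against 95.1% ± 2.48, exact permutation p = 0.0857, adjusted 0.302), where 4 pools against 3 allow no p below 0.0286. SO was below SOA by 2.66 points (exact permutation p = 0.151, adjusted 0.302). IFC minus SO was 0.692 points (exact permutation p = 0.746) and IFC minus SOA was -1.97 points (exact permutation p = 0.286). Without 1 library SO minus SOA ranged from -3.59 to -1.67 points, IFC minus SO from -0.318 to 1.62 and IFC minus SOA from -2.98 to -1.23. Without IV1 the difference of SOA and IV was 5.27 points and the groups did not overlap, with an exact permutation p of 0.0667, the smallest that 4 pools against 2 allow. With all libraries none of the differences passed the test.

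The middle, which carries the end of the Gnasxl exon and introns of the Nesp and Gnasxl transcripts with only 11.8 CpGs per kb, was also methylated in every library, in 94.1% of 2724 calls over all libraries against 96.3% in each gDMR. Single libraries lay between 93.8% and 98.8% in IFC, between 94.0% and 96.8% in SO and between 93.9% and 96.5% in SOA. IV1, IV2 and IV3 had 87.2%, 95.7% and 91.9%, of which the first was the lowest of all 16. The pools averaged 96.0% ± 2.55 in IFC, 95.5% ± 1.09 in SO and 95.1% ± 1.08 in SOA (mean ± SD, n as above), and 91.6% ± 4.26 in IV, or 93.8% ± 2.66 without IV1. The difference of SOA and IV, 3.48 points, did not pass the exact permutation test (p = 0.171, adjusted 0.635). It was 1.27 points without IV1 and 5.53 points without IV2. The other 3 differences were below 1 point.

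The Nesp side combined the unmethylated Nesp promoter with a methylated stretch that leads to the gDMR, so that its pooled level mixes the 2 states. IFC1 to IFC4 had 28.5%, 16.2%, 20.4% and 16.2%, SO1 to SO5 had 14.4%, 31.3%, 27.4%, 27.0% and 28.2%, SOA1 to SOA4 had 35.9%, 35%, 23.8% and 16.7%, and IV1 to IV3 had 24.7%, 24.2% and 21.2%. The spread within groups was wide and the groups overlapped. No comparison passed the exact permutation test, in which IFC minus SO was -5.35 points with p = 0.230, SO minus SOA -2.20 with p = 0.659, SOA minus IV 4.49 with p = 0.40 and IFC minus SOA -7.55 with p = 0.20. SOA minus IV was 5.14 points without IV1, 1.80 without SOA1 and 8.22 without SOA4. IFC minus SO ranged from -8.16 points without SO1 to -3.93 without SO2. SO minus SOA ranged from -5.92 without SOA4 to 0.615 without SO1, and IFC minus SOA from -11.3 without SOA4 to -4.86 without SOA1. The share of calls that fell in the low first 5000 bp varied from 63.3% to 86.5% between libraries. With both parts weighted by their CpGs, a weighting added after the data had been seen, the 4 differences were -1.55, 0.120, -0.442 and -1.43 points. Within those 5000 bp, which hold 211 CpGs, IFC averaged 1.97% ± 0.995, SO 3.79% ± 4.25, SOA 3.75% ± 4.83 and IV 5.46% ± 7.19 (mean ± SD over pools), and IV without IV1 1.32% ± 0.446. The highest libraries there were IV1 with 13.8%, SOA1 with 10.8% and SO4 with 10.4%, against 0% to 5.56% in the other 13. The rest of the element was methylated in 85.3% to 100% of calls, IV1 again being the lowest.

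The 3' gene body, which holds the Gsα-encoding exons, also held both states, and its bins below 50% were those from 46 to 48 kb, 2000 bp with 153 CpGs, which cover most but not all of the low stretch at exon 1. As pooled, its libraries ranged from 66.7% to 96.2%, and the means with SD were 80.8% ± 11.4 for IFC, 73.0% ± 7.39 for SO, 78.7% ± 8.24 for SOA and 74.7% ± 5.39 for IV, or 71.7% ± 1.68 without IV1. The differences of 7.81, -5.72, 4.00 and 2.09 points for IFC minus SO, SO minus SOA, SOA minus IV and IFC minus SOA had exact permutation p-values of 0.310, 0.294, 0.486 and 0.800. IFC minus SO was 2.68 points without IFC4, and SOA minus IV was 7.04 points without IV1 and between 1.36 and 7.51 points without another single library. SO minus SOA was between -9.23 points without SOA4 and -3.07 without SOA2. With positions of at least 2 calls, SO minus SOA turned to 5.49 points and SOA minus IV to -4.69. IFC minus SO was 0.390 points and IFC minus SOA -5.33 when IFC2 and IFC4, which had no call in the bins from 46 to 48 kb, were left out. IFC4, 1 of these 2 libraries, had the highest pooled level. In the 14 libraries with calls these 2000 bp had 0% to 66.7%, and without SOA1, the highest, 0% to 27.3%. Outside them the element had 80.3% to 97.5%, with means of 90.2%, 89.6%, 89.6% and 90.0% in IFC, SO, SOA and IV.

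**Figure D3:**
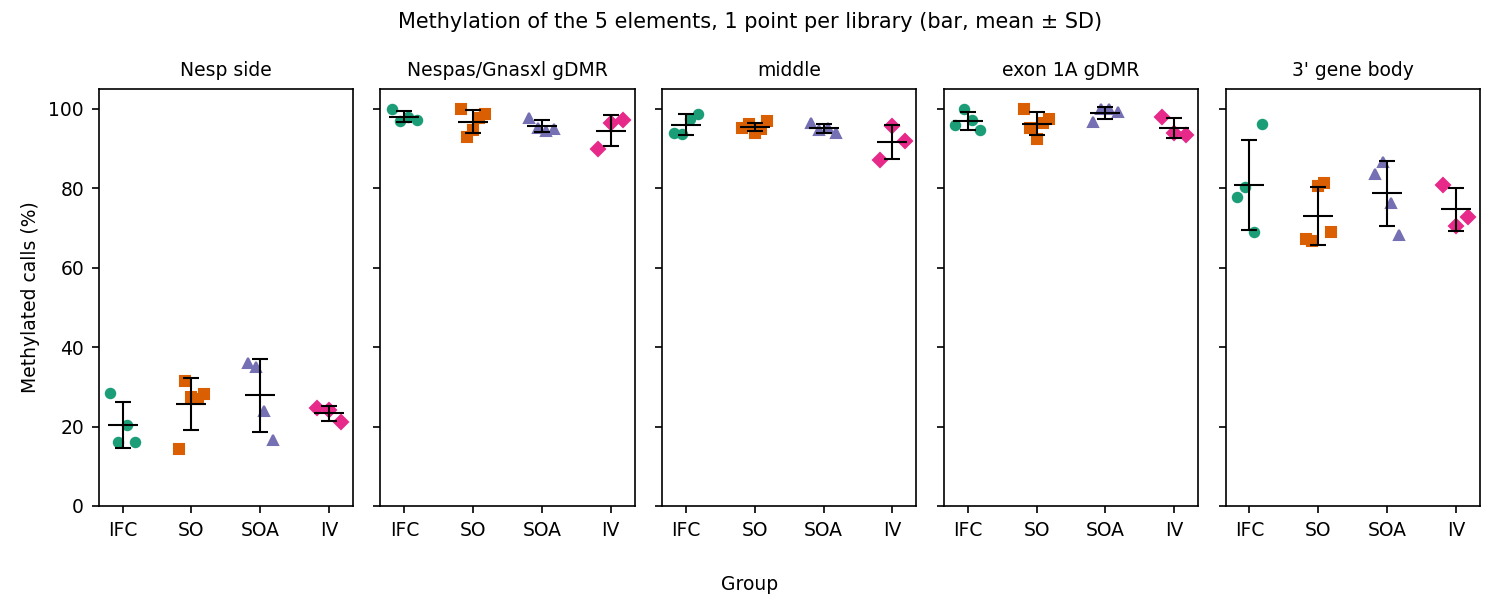
Methylated calls in percent (vertical axis) of each element in each library, 1 point per library, by group (horizontal axis), with bars for the mean and SD. Both gDMRs and the middle sit near the top in all groups with IV1 lowest in the Nespas/Gnasxl gDMR and in the middle, while the Nesp side and the 3' gene body, which mix methylated and unmethylated stretches, scatter widely within each group.

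Around the annotated transcript starts, in windows of 500 bp on either side, the 2 states were as far apart as in the bins. Over all libraries the Nesp starts (174284320 to 174285358) had 6.12% of 1062 calls methylated, the Nespas starts (174295389 to 174295436) 96.0% of 377, the Gnasxl start (174297859) 96.9% of 420, the exon 1A starts (174327570 to 174328023) 96.2% of 965 and the Gnas exon 1 starts (174330006 to 174330287) 9.63% of 540. Each of the 3 starts known to be silent on the maternal copy was thus methylated, and each of the others was not. A further annotated transcript of Nespas, also on the reverse strand, starts within the unmethylated Nesp region, at 174285435, and its window had 5.13%. Annotated starts further inside the gene, at 174341704 and 174344650, had 93.3% of 89 and 93.8% of 80 calls, as the gene body around them.

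Methylation at the Nesp starts varied from 0% to 24.4% between libraries. The IFC libraries had 0%, 1.56%, 0% and 0%, the SO libraries 0%, 0%, 9.02%, 9.35% and 0%, and the SOA libraries 20%, 5.56%, 2.44% and 4.49%. IV1 had 24.4% of 90 calls (95% Wilson interval 16.7% to 34.2%) while IV2 and IV3 together had 2.29% of 218 (0.984% to 5.26%). Values above 6% were seen in SO3, SO4, SOA1 and IV1 only. At Gnas exon 1, SOA1 had 50% of 34 calls, and the other 14 libraries with calls lay between 0% and 17.6%. At the Nespas starts IV1 had the lowest value, 84.2% of 19 calls.

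**Figure D4:**
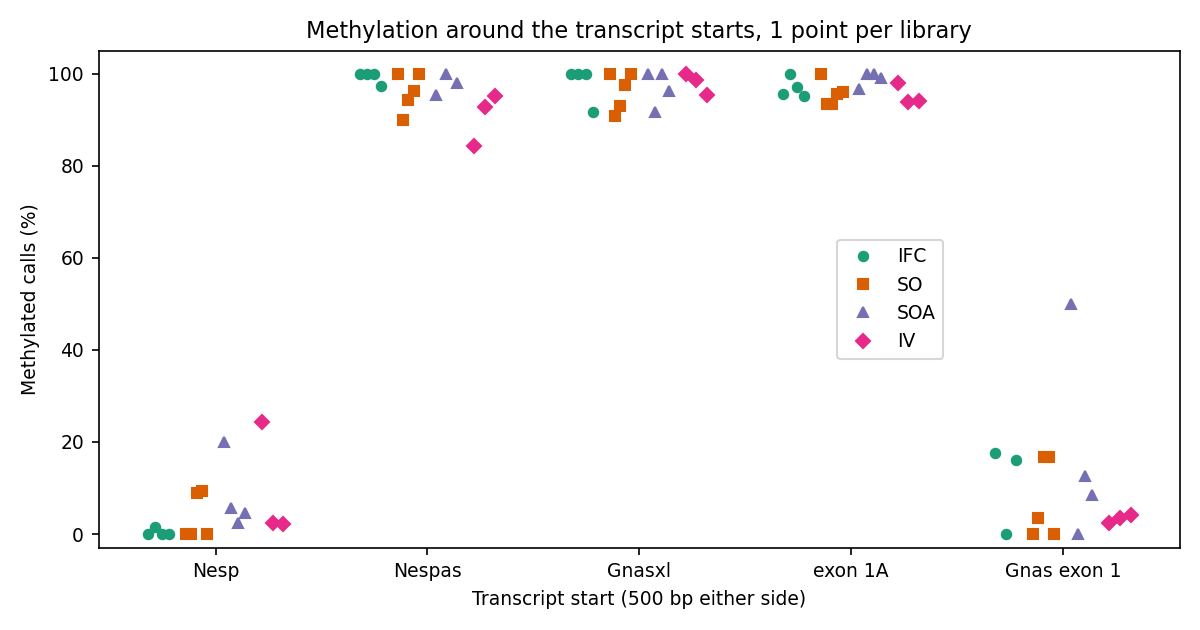
Methylated calls in percent (vertical axis) within 500 bp of the starts of Nesp, Nespas, Gnasxl, exon 1A and Gnas exon 1 (horizontal axis), 1 point per library, coloured by group. The Nespas, Gnasxl and exon 1A starts are at 84.2% or above in every library with calls, and the Nesp and Gnas exon 1 starts are at 24.4% or below apart from SOA1 at Gnas exon 1.

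Calls next to each other on 1 strand tend to come from the same DNA fragment, so that runs of at least 3 covered positions with gaps of at most 100 bp were read together. In the Nespas/Gnasxl gDMR, 172 of 216 such runs were methylated at every position, 42 were mixed and 2 were unmethylated at every position. In the middle these were 176, 41 and 3 of 220, and in the exon 1A gDMR 45, 22 and 0 of 67. In the low stretch of the Nesp side the order was turned round, with 151 of 181 runs unmethylated throughout, 27 mixed and 3 methylated throughout, and in the bins from 46 to 48 kb at Gnas exon 1 32 of 44 runs were unmethylated throughout. Runs wholly in the state opposite to their element were thus rare, and the few that occurred were in a small number of libraries. A run can join several fragments, so that a mixed run may hold a whole fragment of the opposite state. In the low stretch of the Nesp side, IV1 had 26 methylated calls, of which 4 lay in runs methylated throughout.

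IV1 held 4 of the 5 runs that were unmethylated throughout in the Nespas/Gnasxl gDMR and the middle. They lay at 174299610 to 174299689 with 11 positions, at 174299978 to 174300052 with 8, at 174300484 to 174300557 with 7 and at 174326380 to 174326424 with 4. At the positions of the first 3 the other libraries had 83 of 83, 101 of 101 and 36 of 36 calls methylated, and at the last 26 of 29. The remaining run was in SOA4, at 174299073 to 174299142 with 7 positions, where the other libraries had 54 of 59 calls methylated.

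The first 3 of these runs fell in a stretch of 2 kb, 174299000 to 174300999, which overlaps the Gnasxl exon at 174297859 to 174300217 and the sequence downstream of it. There IV1 had 66.2% of 77 calls (Wilson interval 55.1% to 75.8%), and the other 15 libraries together had 96.0% of 1201 (94.7% to 97.0%). IV2 and IV3 had 97.1% and 97.7%, and the next lowest libraries were SO3 with 90.3% and SOA4 with 90.6%. In the rest of the gDMR and the middle IV1 had 92.9% of 365 calls. The stretch was picked after its values had been seen, so that these intervals describe it without a test, and they cover counting error only. In the tile of 100 CpGs from 174299812 to 174302123, IV1 had 74.6%, and of its 48454 tiles above 80% in the other groups 3.58% were as low as that or lower.

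In the unmethylated regions departures of 1 or 2 libraries were seen in the other direction. In the second kb of the locus, IV1 had 18 of 44 calls methylated on the reverse strand, all at 9 positions between 174285043 and 174285109 with at most 2 calls each, and 0 of 11 on the forward strand. The other 15 libraries had 4 of 327 methylated on the forward and 9 of 273 on the reverse strand there. Most of these methylated calls were in SO3, which had 9 of 57 calls methylated in this kb. SOA1 had a run of 7 positions methylated throughout at 174284163 to 174284225, upstream of Nesp, where the other libraries had 4 of 58 calls methylated. In Gnas exon 1, 17 of the 18 calls of SOA1 over the 80 bp from 174330213 to 174330292 were methylated on the forward strand, against 1 of 76 in the other libraries. A further stretch of IV1 lay further inside the low part, where IV1 was methylated throughout at 4 positions from 174287999 to 174288158 on the reverse strand, against 4 of 23 calls in the other libraries. SO4 shared part of it, with 3 positions methylated throughout from 174288090 to 174288158 on the same strand.

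**Figure D5:**
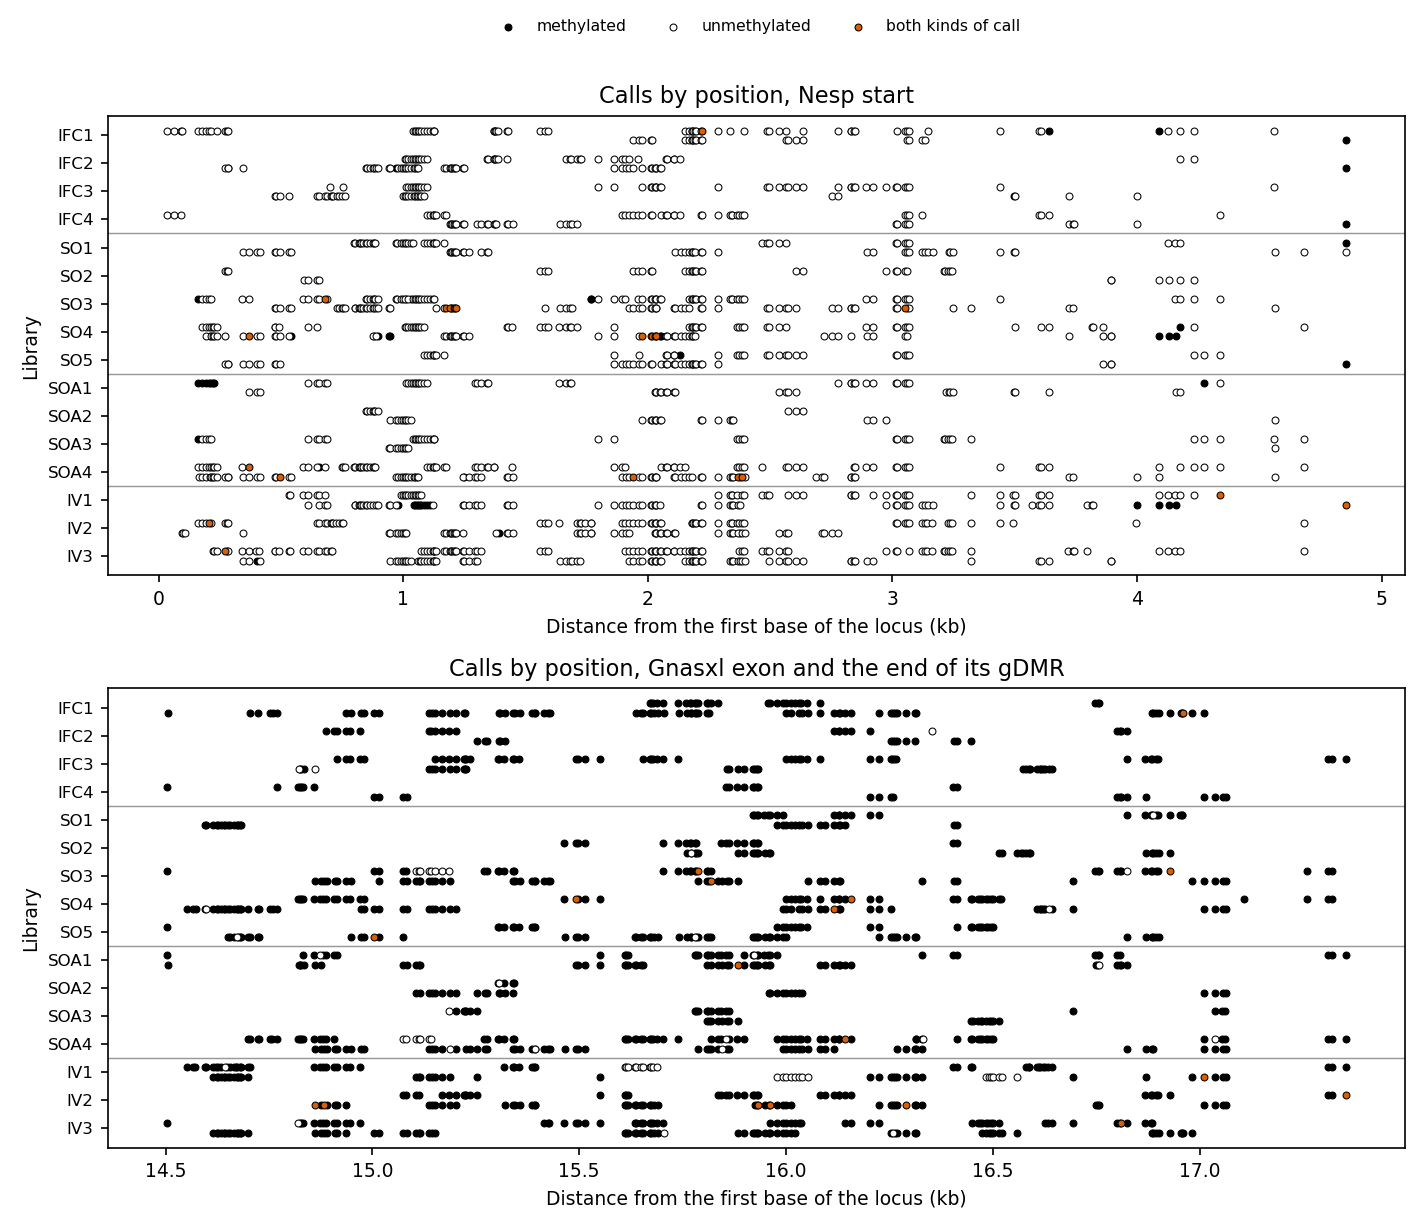
Every call in 2 stretches of the locus, by position (horizontal axis, distance from the first base of the locus in kb) and library (vertical axis, forward strand above reverse strand). Filled points are methylated, open points unmethylated and orange points hold both kinds of call, and the contiguous filled points of IV1 and SOA1 in the upper panel and open points of IV1 and SOA4 in the lower panel are the runs named in the text.

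The locus was next compared between groups with the test used across the genome, a logistic model of the calls in tiles of 100 CpGs with a likelihood-ratio test and Benjamini-Hochberg adjustment over all tiles. Of the 218689 tiles 16 overlapped the locus, and 13 or 14 of these could be tested. The tiles that could not be tested lay between 174328269 and 174331904, around Gnas exon 1. With all libraries, the tile from 174329357 to 174330290 was untested in all 4 comparisons, so that the counts hardly cover that island. In IFC against SO, 1 of 14 was called, where 4.46% of all 199138 tiles tested were called, and 0 of 14 differed by 20 points, where 1.21% did. In SO against SOA, 1 of 14 was called, against 9.00% of all tiles, and 0 by 20 points, against 1.95%. In SOA against IV, 1 of 14 was called, against 6.46%, and 0 by 20 points, against 0.438%. In IFC against SOA, 0 of 13 were called, against 11.4%, and 0 by 20 points, against 3.98%. In the order of these comparisons, 3, 2, 5 and 3 locus tiles had an unadjusted p under 0.05 by the likelihood-ratio test. No share over all tiles was taken for these, so that they cannot be set against a background. They include tiles that lie mostly outside the locus. These were the tile from 174279037 to 174284657 in SOA against IV, and that from 174346320 to 174358015 in all comparisons but IFC against SO. By a quasi-binomial F test 1, 1, 0 and 0 locus tiles had an unadjusted p under 0.05, beside 15207, 21046, 11954 and 25891 of all tiles. With so few tiles, counts of 0 and 1 do not stand out from these backgrounds. Without 1 library the locus tiles called ranged from 0 to 3 in SO against SOA, and all tiles called from 10066 to 20313. In SOA against IV the ranges were 0 to 4 in the locus and 2485 to 24216 over all tiles. At the top of both locus ranges, tiles that lie mostly outside the locus were among those called. Without SOA2 the tile from 174329357 to 174330290 could be tested and was called in both comparisons. In that tile SOA1 had 64%, SOA3 100% of 6 calls and SOA4 13.3%, against 0% to 32.4% in SO and 2.86% to 16% in IV.

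The called tile was the same in the 3 comparisons, 174284680 to 174286078 at the Nesp starts. It had 0%, 1.25%, 0% and 0% in IFC1 to IFC4, 0%, 0%, 9.48%, 14.8% and 0% in SO1 to SO5, 0%, 0%, 0% and 1.82% in SOA1 to SOA4, and 22.4%, 1.08% and 0% in IV1 to IV3. Only SO3, SO4 and IV1 were above 2%, and the groups overlapped. Of the 81721 tiles below 20% in the other groups 18.3% were in IV1 at least as high as this tile. As unweighted means of library percentages, IFC minus SO was -4.55 points, SO minus SOA 4.40 points and SOA minus IV -7.35 points. The likelihood-ratio test of the binomial counts gave p-values of 0.000752, 0.00274 and 0.0372 adjusted over all tiles. This test pools the calls of each group and so weighs libraries by depth, and the sizes in points are not what it tested. In the same binomial test SOA minus IV became -0.0831 points without IV1 (adjusted p = 0.805). Without SOA1, SOA2, SOA3 or SOA4 that difference stayed between -7.81 and -7.20 points. The tile was then not called either (binomial test, adjusted p = 0.0674, 0.0618, 0.0810 and 0.0627), while it was called without IV2 or IV3. Without SO4, SO minus SOA became 1.92 points (binomial test, adjusted p = 0.0776) and IFC minus SO became -2.06 points (adjusted p = 0.0282). A quasi-binomial F test, which allows for the spread between libraries, gave adjusted p-values of 0.517, 0.375 and 0.860 for the 3 differences.

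The 50 kb upstream of the Nesp side had 37.3% to 50% in single libraries, and group means of 45.8%, 45.9%, 41.8% and 45.2% in IFC, SO, SOA and IV. The 50 kb downstream had 4.39% to 17.4%, and group means of 13.1%, 10.2%, 7.35% and 13.3%. Both gDMRs, the middle and the 3' gene body stood above both flanks in every library, and the Nesp side as a whole lay between the flanks in every library but IFC2.

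The hexamer TGCCGC is the core of the motif of ZFP57, a zinc finger protein that binds its methylated form and maintains imprints in the embryo. The Nespas/Gnasxl gDMR held 12 matches, 7 on the forward and 5 on the reverse strand with 1 overlapping pair. Of genome windows of the same length 23.7% held a match and 0.0023% held as many. Windows here and below were not matched for CpG content, while the hexamer itself holds a CpG and this gDMR had 49.1 CpGs per kb. The exon 1A gDMR held 2 matches, where 7.86% of windows of its length had any and 0.884% as many, and the Nesp side, the middle and the 3' gene body held 2, 2 and 5, where 41.1%, 68.7% and 57.2% of windows had any and 16.1%, 42.8% and 3.68% as many. A window of the gDMR with 5 matches is shown because no other 300 bases of the element held more, with the matches of both strands in capitals and the first 2 of them overlapping.
gDMR motif window (chr2:174295818-174296117, forward strand): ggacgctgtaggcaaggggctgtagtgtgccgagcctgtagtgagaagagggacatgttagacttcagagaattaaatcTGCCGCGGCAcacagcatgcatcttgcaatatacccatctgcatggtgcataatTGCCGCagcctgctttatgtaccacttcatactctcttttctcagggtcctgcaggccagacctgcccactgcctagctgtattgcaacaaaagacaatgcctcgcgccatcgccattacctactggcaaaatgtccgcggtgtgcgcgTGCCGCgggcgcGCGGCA
Its 17 CpGs were methylated in 95.1% of 102 calls. At the CpGs of the 12 matches of the gDMR 96.7% of 91 calls were methylated, as in the element as a whole, and at the 2 matches of the Nesp side 1 of 18. A match is a run of letters and does not show that the protein was bound.

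Last, Gnas and 19 genes of the Gs and cyclic AMP pathway of the oocyte were compared as gene bodies with the same model over all genes. The list holds the receptors Gpr3 and Gpr12, which drive Gs constitutively in oocytes, the 9 adenylyl cyclases Adcy1 to Adcy9, the cyclic AMP phosphodiesterase Pde3a, 6 subunits of protein kinase A and the transcription factor Creb1. In IFC against SO, 2 of 19 were called, both higher in IFC, where 20.7% of all genes were called. In SO against SOA, 5 of 19 were called, 4 higher in SO and 1 lower, against 25.7% of all genes. In SOA against IV, 4 of 19 were called, 2 in each direction, against 26.4%, while 2 of 19 were called without IV1, against 15.4% of all genes in that fit, and 12 of 19 without SOA4, against 27.3%. In IFC against SOA 8 of 19 were called, 6 higher in IFC and 2 lower, against 30.4%. None of them was called with a difference of 20 points, where 1.09%, 1.49%, 0.940% and 2.76% of all genes were in the 4 comparisons. The median differences of the list, 0.402, 0.861, 2.99 and -1.11 points, stood beside medians of 0.576, -0.0611, 0.808 and 0.513 over all genes. Under the quasi-binomial F test 0 of the 19 were called after adjustment in any comparison, where 0.0107%, 0.234%, 0% and 0.983% of all genes were. Before adjustment 1, 2, 0 and 3 of the 19 had a p under 0.05 in this test. No share over all genes was taken at that threshold, so that these counts cannot be set against a background.

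Prkar1a, a regulatory subunit of protein kinase A, was higher in IFC. IFC1 to IFC4 had 68.9%, 72.3%, 57.4% and 73.2%, and SO1 to SO5 had 57.1%, 46.4%, 66.7%, 55.2% and 51.9%, so that IFC3 and SO3 overlapped the other group. The difference was 12.46 points (likelihood-ratio test adjusted over all genes, p = 0.000522), and the quasi-binomial F test gave an adjusted p of 0.683. Gpr12 was higher in SOA than in IV by 11.6 points (binomial likelihood-ratio test, adjusted p = 0.00163), with IV1 at 63.2%, IV2 at 97.9% and IV3 at 91.8%. Without IV1 the difference was 1.07 points (same binomial test, adjusted p = 0.893).

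Gnas as a whole gene body, in which the unmethylated stretches are averaged with the rest, was called in SOA against IV with all libraries. SOA1 to SOA4 had 80.5%, 83.6%, 68.0% and 70.3%, and IV1 to IV3 had 72.4%, 73.4% and 68.4%, so the groups overlapped. The difference of 4.21 points (binomial likelihood-ratio test adjusted over all genes, p = 0.0382) was 4.71 points without IV1 (adjusted p = 0.0348). It was 6.74 points without SOA3, 5.97 without SOA4 and 5.20 without IV2 (same binomial test, adjusted p = 0.0130, 8.37e-06 and 0.00931). It was 2.59, 1.53 and 2.70 points and was no longer called without SOA1, SOA2 or IV3 (adjusted p = 0.430, 0.437 and 0.494), nor by the quasi-binomial F test (adjusted p = 0.900). In the other 3 comparisons the adjusted p was 0.904, 0.849 and 0.967. Without SOA4, however, Gnas was also called in SO against SOA, with SO minus SOA at -3.32 points, and in IFC against SOA, with IFC minus SOA at -3.37 points (binomial likelihood-ratio test, adjusted p = 0.0183 and 0.0242).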

How the data were processed

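Reads were processed by the authors, with Trim Galore 0.4.4, cutadapt 1.9.1 and Bismark 0.19.0 named in the submitters' processing notes, and mapped to GRCm38 with duplicates removed. The deposited tables hold, for each covered CpG of each strand, counts of calls of either state and the percent that was methylated, not normalized. No position was removed, and 72 calls in the locus (0.618%) lay off a reference CpG.

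Calls were pooled over each element, since most positions had 1 call. Wilson intervals of 95% cover counting error only. Elements were compared by two-sided exact permutation tests over libraries, adjusted over 4 comparisons. Tiles and gene bodies were required to have 5 covered positions in each library compared. They were tested by the logistic model with Benjamini-Hochberg adjustment at 0.05 over all features. The model was checked on simulated data without spread between libraries, so that this check could not show how such spread affects it. For tiles and gene bodies, differences in points and the directions counted are between unweighted means of library percentages. The likelihood-ratio test instead pools the calls of each group. Tiles, starts and motif matches in the locus were all read, and pathway genes were named when called with at least 10 points of difference. The members and lists were chosen with earlier results of these data known, and the stretches of IV1 and SOA1 after their values were seen. Sequences came from RefSeq, by the promoter table for Nesp, exon 1A and Gnas exon 1 and by coordinates for Nespas. Python 3.11.15, numpy 2.4.6, scipy 1.17.1, pandas 2.3.3 and matplotlib 3.10.9 were used. The extraction protocol of the labels speaks of blastocysts, while all other labels and the methods speak of MII oocytes. Non-CpG methylation was not analysed here.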

Additional observations from a re-analysis of the deposited data

Results flagged for a closer look

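Of 32 groups of 4 or 5 libraries examined for a library far from the rest, 1 held such a library, where chance gives about 1 in 20. On the Nesp side SO1 had 14.4% methylated calls, while the other 4 SO libraries had 27.0% to 31.3%. Of the calls of SO1 on this element 86.5% fell in the unmethylated first 5000 bp, the largest share of the 16 libraries. Within that stretch SO1 had 1.04%, where the other SO libraries had 0% to 10.4%, and in the rest of the element SO1 had 100%, where they had 91.3% to 97.4%. With both parts weighted by their CpGs, SO1 had 23.8%, within the 21.0% to 29.6% of the other SO libraries.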

How the results depend on the processing

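For the elements, 270 alternatives kept direction and side of a p of 0.05, 2 fell below it and the other 22 changed sign. The p was unadjusted, except for the logistic model, where it was adjusted with all tiles. Some alternatives had too few pools or pairs to fall below 0.05, so that their side was fixed in advance. Among these were the replicate block, SOA against IV without 1 library, and the shallow libraries in IFC against SO and SO against SOA. The 2 that fell below it were IFC against SOA in the Nespas/Gnasxl gDMR, with the limits of the study's region (2.98 points) and without SOA1. With low and other bins weighted by CpGs, an alternative added after seeing the data, the Nesp side gave 0.120 for SO minus SOA and -0.442 for SOA minus IV. In the 3' gene body it gave -4.46 for IFC minus SOA, with IFC2 and IFC4 lost for want of calls, and without these 2, also added after seeing the data, the unweighted value was already -5.33. With positions of at least 2 calls the middle gave -1.57 for SO minus SOA and -0.50 for IFC minus SOA, exon 1A -4.25 for IFC minus SO with 3 of the 4 IFC libraries, and the 3' gene body 5.49 for SO minus SOA and -4.69 for SOA minus IV. With reference CpGs only the middle gave -0.271 for SO minus SOA, and with the shallow libraries only exon 1A gave -0.649 for IFC minus SO and the 3' gene body -1.42 for IFC minus SOA. Leaving out 1 library moved the Nesp side from -5.92 to 0.615 (SO minus SOA), the gDMR from -1.15 to 2.43 (SOA minus IV) and from 1.75 to 3.11 (IFC minus SOA), the middle from -0.359 to 1.33 (IFC minus SO) and from -0.0242 to 0.839 (SO minus SOA), exon 1A from -0.318 to 1.62 (IFC minus SO) and the 3' gene body from -3.04 to 6.05 (IFC minus SOA). In the order of the comparisons, tiles called genome-wide were 8879, 17752, 12912 and 22456, and became 1, 37, 7 and 303 by the quasi-binomial F test, 4008, 5415, 6636 and 7821 with at least 20 positions, where fewer tiles could be tested, and 2400, 3855, 875 and 7858 with 20 points. Without 1 library they ranged from 7347 to 9177, 10066 to 20313, 2485 (without IV1) to 24216 (without IV3) and 14766 to 22255, with the lowest of SO against SOA and IFC against SOA without SOA4. In the locus, the F test, 20 positions (4 and 0 tiles testable in the first 2 comparisons) and 20 points each left 0 tiles, with 1, 1, 0 and 0 at an unadjusted p under 0.05 by the F test, and without 1 library the counts were 1 to 1, 0 (without SO4) to 3 (without SOA2), 0 (without SOA3, SOA4 or IV1) to 4 (without IV3) and 0 to 1 (without IFC3 or IFC4). Of the 19 pathway genes, 0 were called by the F test or with 20 points. Without 1 library the first comparison had 2 to 5 (without IFC1, 17.7% of all genes called). The second had 4 (without SO1 or SO2, 25.6% and 25.3%) to 7 (without SOA4, 23.7%). The third had 2 (without IV1, 15.4%) to 12 (without SOA4, 27.3%), and the last 7 to 11 (without SOA1, 32.0%). Libraries share only a number, with a correlation of tile deviations between -0.0132 and 0.0692 for equal numbers, and with the number as a replicate block SOA against IV had 5763 tiles genome-wide and 2 in the locus. Otherwise the cause of these changes was not tested. Depth limits single positions and, for exon 1A and exon 1, single libraries.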
